A study of Mus musculus with 6 samples.

Results

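The serum amyloid A (SAA) family was examined in the hepatic transcriptome of WT and *Txndc5*-deficient (KO) mice through the rows of the gene table with the symbols *Saa1*, *Saa2*, *Saa3* and *Saa4*. All 4 genes were found among 16123. The family was selected on the log2 ratios of *Saa1* and *Saa2* between the genotypes, so its values are given as a description and without a test. The 6 RNAseq libraries were 3 pools of WT mice (strain C57BL/6Rj by the labels; pools 1, 2 and 5) and 3 pools of KO mice (strain C57BL/6JRj-Txndc5<em2Mdnp>/Ciba; pools 2, 3 and 4), each made by the study's methods from the liver RNA of 3 male mice, aged 2 months when the diet began and born of heterozygous crosses. The KO mice descend from 1 founder and lack exon 3 of *Txndc5*, a protein disulfide isomerase of the endoplasmic reticulum, in every tissue. All mice received a purified chow diet for 4 weeks and then fasted for 16 h, and their livers were washed in PBS.

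SAA proteins are small apolipoproteins that travel in plasma on high-density lipoproteins (HDL). *Saa1* and *Saa2* encode acute phase forms that hepatocytes make in large amounts when interleukin 6 and interleukin 1 activate STAT3, NF-kB and C/EBP factors. *Saa3* is an acute phase form of mouse that macrophages and adipocytes also make, and *Saa4* encodes the constitutive form, which liver makes without inflammation.

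The 4 genes lie within 42.3 kb of chromosome 7, on build GRCm38.p6 as listed by RefSeq. *Saa3* (Gene ID 20210) lies at chr7:46711998-46719615, *Saa4* (Gene ID 20211) at chr7:46727992-46732603 and *Saa1* (Gene ID 20208) at chr7:46740497-46743181, all on the minus strand. *Saa2* (Gene ID 20209) lies at chr7:46751833-46754313 on the plus strand, so *Saa1* and *Saa2* are read away from each other from starts 8.85 kb apart. The RefSeq table also gives Saa2 as an alternative name of *Saa1* and Saa1 as one of *Saa2*, so the Gene ID tells the genes apart more safely than the symbol. Each gene has 4 exons in its GENCODE M21 transcript, with a coding length of 369 bases for *Saa1*, *Saa2* and *Saa3* and 393 bases for *Saa4*. Bases 61 to 300 of the *Saa1* and *Saa2* coding sequences are shown because nearly all of the difference in SAA transcripts was counted on this similar pair, and the capitals mark 17 of the 18 bases at which the pair differs.
*Saa1*: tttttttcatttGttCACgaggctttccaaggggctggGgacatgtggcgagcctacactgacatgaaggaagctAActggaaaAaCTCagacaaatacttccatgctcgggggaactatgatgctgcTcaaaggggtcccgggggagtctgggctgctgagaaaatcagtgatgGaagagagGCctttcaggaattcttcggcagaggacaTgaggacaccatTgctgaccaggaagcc
*Saa2*: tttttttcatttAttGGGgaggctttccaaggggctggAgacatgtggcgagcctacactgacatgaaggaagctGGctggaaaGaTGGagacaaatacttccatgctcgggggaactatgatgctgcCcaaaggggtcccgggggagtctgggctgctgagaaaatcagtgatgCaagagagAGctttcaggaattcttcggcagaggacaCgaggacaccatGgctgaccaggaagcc

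The *Saa1* and *Saa2* coding sequences were identical at 351 of 369 positions (95.1%), and their longest shared run was 73 bases. *Saa3* was 74.3% identical to *Saa1* and 72.7% to *Saa2*, while *Saa4* was 64.6% and 64.5% identical to them and 62.1% to *Saa3*. The likeness of *Saa1* and *Saa2* bears on the counting of their reads, which were 100 bases long. None of the 510 windows of 100 bases along the *Saa1* transcript was shared exactly with *Saa2* (0 of 510), and 9 of them (1.76%) differed from their best match in *Saa2* at 1 base. The median window differed at 7 bases. How the authors' counting treated reads that fit both genes is not given in the sources used here, so the division of reads between *Saa1* and *Saa2* is uncertain to that extent.

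The promoters are shown because *Saa1* and *Saa2* were high together in KO while *Saa3* and *Saa4* differed little. Each sequence holds the 250 bases before the RNA start in RefSeq, on the gene's own strand, at chr7:46742981-46743230 (minus) for *Saa1*, chr7:46751583-46751832 (plus) for *Saa2*, chr7:46715677-46715926 (minus) for *Saa3* and chr7:46732604-46732853 (minus) for *Saa4*. The *Saa1* and *Saa3* starts used here lie inside the gene spans given above. Capitals mark the matches on either strand to the C/EBP letters TTGCNNAA and to the consensus of NF-kB.
*Saa1* promoter: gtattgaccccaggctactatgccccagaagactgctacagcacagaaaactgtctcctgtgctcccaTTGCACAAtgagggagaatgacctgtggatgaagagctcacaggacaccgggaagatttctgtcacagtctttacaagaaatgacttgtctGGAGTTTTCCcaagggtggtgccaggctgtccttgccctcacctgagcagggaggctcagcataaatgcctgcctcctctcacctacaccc
*Saa2* promoter: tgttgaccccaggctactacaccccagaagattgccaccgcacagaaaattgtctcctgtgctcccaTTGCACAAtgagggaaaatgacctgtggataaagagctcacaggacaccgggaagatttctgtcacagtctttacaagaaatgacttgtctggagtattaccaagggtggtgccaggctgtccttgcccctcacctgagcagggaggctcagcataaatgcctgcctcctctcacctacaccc
*Saa3* promoter: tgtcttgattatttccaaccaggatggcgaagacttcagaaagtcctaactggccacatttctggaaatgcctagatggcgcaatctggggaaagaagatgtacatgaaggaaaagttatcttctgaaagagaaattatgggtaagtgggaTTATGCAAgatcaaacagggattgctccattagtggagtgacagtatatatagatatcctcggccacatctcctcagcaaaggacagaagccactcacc
*Saa4* promoter: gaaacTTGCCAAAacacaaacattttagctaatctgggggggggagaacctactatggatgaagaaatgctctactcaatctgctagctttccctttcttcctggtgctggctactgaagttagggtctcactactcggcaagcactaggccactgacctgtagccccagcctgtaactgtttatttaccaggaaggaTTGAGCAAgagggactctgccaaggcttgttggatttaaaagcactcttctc

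The promoters of *Saa1* and *Saa2* were 94.8% identical over their alignment, and every other pair was between 42.6% and 47.4% identical. The C/EBP letters were found in all 4 promoters and in 9.57% of 32817 mouse promoter windows of the same length. *Saa1* and *Saa2* carried the same match, TTGCACAA, 182 and 183 bases before their starts. *Saa3* carried TTATGCAA 99 bases before its start, and *Saa4* had 2 matches, the first of them 245 bases before its start. The NF-kB consensus was present in 9.55% of the windows and was found in *Saa1*, as GGAGTTTTCC 91 bases before the start. Its letters were not in the windows of *Saa2*, *Saa3* and *Saa4*. Neither the STAT letters TTCNNNGAA (7.01% of the windows) nor the TATA letters TATAAA (12.4%) were in any of the 4 windows. A match is a description of the sequence, and the motifs were searched with the expression values known.

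The gene table gives 1 value for each genotype, a number of reads divided by library size factors and combined over the 3 pools, so *Saa1*, *Saa2* and *Saa4* have no value by pool. The 6 libraries held between 44040160 and 46050030 clean reads, of which between 91.63% and 93.66% mapped. WT pools 1 and 5 stood apart from the other libraries, with 0.67% and 0.69% ribosomal RNA against 0.26% to 0.40%. The part of this in the genotype differences was not tested, since the gene table has no value by pool. The targeted gene *Txndc5*, on chromosome 13, was 2697 normalized reads in WT and 90.8 in KO, a 29.7-fold lower value. *Alb*, the defining transcript of hepatocytes, was 1329546 in WT and 1332576 in KO. The median log2 ratio of KO over WT, taken on the value plus 1, was -0.05 over 11367 genes, those whose mean value reached 10. The 8 hepatocyte markers, *Alb* among them, had a median of -0.10, and 5 of them were below 0, beside 57.7% of all genes.

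*Saa1* was 542 normalized reads in WT and 4748 in KO, an 8.76-fold higher value in KO and a log2 ratio of 3.13. *Saa2* was 299 in WT and 4056 in KO, which was 13.5-fold higher with a log2 ratio of 3.76. *Saa1* and *Saa2* were thus far higher in the KO livers. By log2 ratio *Saa2* ranked first and *Saa1* second, as ranks 1 and 2 of 11367 genes. They were 2 of the 18 genes with a value at least 2-fold higher in KO, and such genes made up 0.158% of those measured. Since these ratios were used to choose the family, nothing is read from that count. In whole liver, more cells expressing a gene and more of its RNA in each cell cannot be told apart.

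*Saa4* was 997 normalized reads in WT and 1276 in KO, which was 1.28-fold higher with a log2 ratio of 0.36. *Saa3* was 58.7 in WT and 67.6 in KO, which was 1.15-fold higher with a log2 ratio of 0.20. The constitutive gene *Saa4* and the third acute phase gene, *Saa3*, thus stood at ranks 732 and 1860, apart from *Saa1* and *Saa2*. *Saa2* exceeded *Saa1* in log2 ratio by 0.63.

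**Figure D1:**
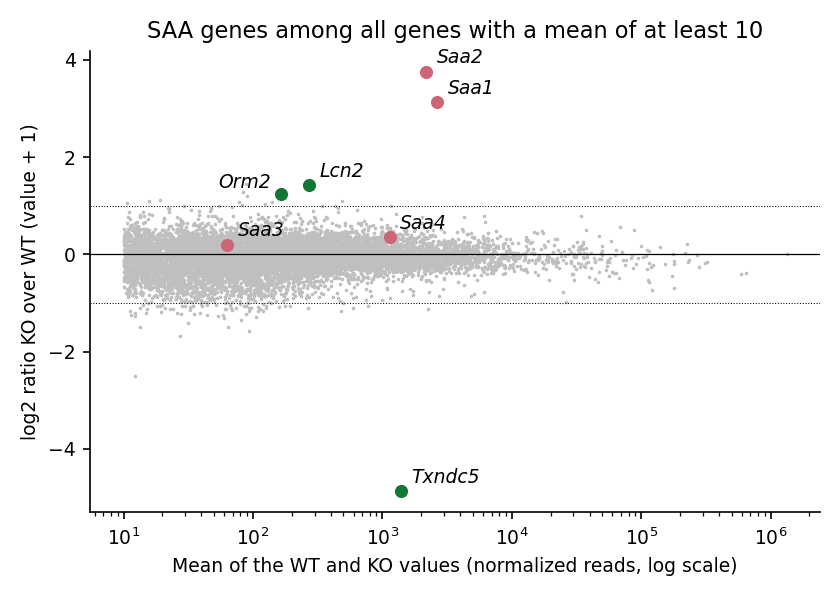
Log2 ratio of KO over WT (value plus 1) against the mean of the WT and KO values (normalized reads, log axis) for the 11367 genes with a mean of at least 10, with 1 point for each gene and dotted lines at a 2-fold difference. *Saa2* (3.76) and *Saa1* (3.13) lie above every other gene, *Saa4* (0.36) and *Saa3* (0.20) lie inside the band of most genes, and *Txndc5* (-4.88) lies lowest.

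Levels of different genes were compared per kb of the transcript length in the table. In WT, *Saa1* was at 893 normalized reads per kb, *Saa2* at 491, *Saa4* at 483 and *Saa3* at 110. In KO, *Saa1* was at 7822 per kb, *Saa2* at 6649, *Saa4* at 617 and *Saa3* at 127. The order of the 4 genes was the same in both genotypes, but the gaps between them were not. In WT *Saa2* was 1.02-fold the level of *Saa4* per kb, a difference that cannot be set against a spread between pools, and in KO it was 10.8-fold the level of *Saa4*. *Saa1* was 1.85-fold the level of *Saa4* per kb in WT and 12.7-fold in KO. Among all genes with a mean of at least 10, *Saa1* moved from rank 1160 per kb in WT to rank 195 in KO and *Saa2* from rank 1712 to rank 226, while *Saa4* went from 1733 to 1462 and *Saa3* from 4288 to 3954.

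**Figure D2:**
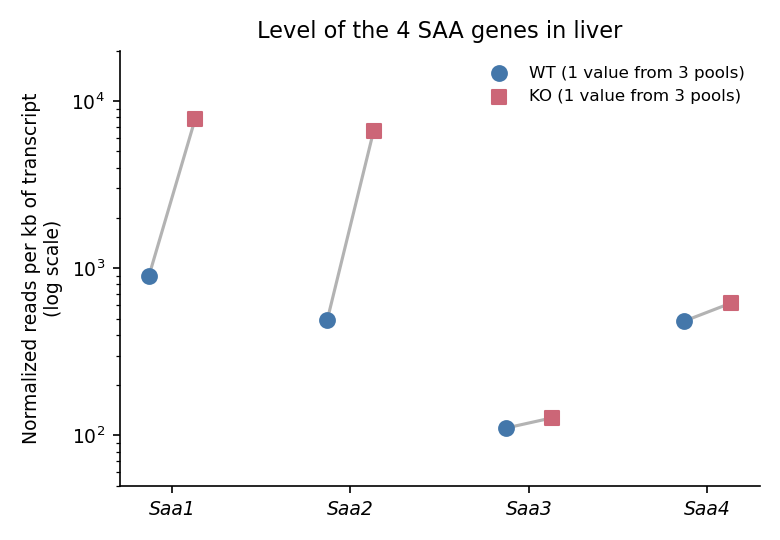
Normalized reads per kb of transcript (log axis) of the 4 SAA genes in WT (circles) and KO (squares), each point being the authors' value for 3 pools, which has no error bar. *Saa1* goes from 893 to 7822 and *Saa2* from 491 to 6649, while *Saa3* and *Saa4* stay within 1.28-fold of their WT level.

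The make-up of the SAA transcripts differed between the genotypes as well. The summed value of the 4 genes was 1898 normalized reads in WT and 10148 in KO, a 5.35-fold higher sum, and per kb the sum was 7.70-fold higher. *Saa4* held the largest share of reads in WT, 52.6%, and 12.6% in KO. *Saa1* held 28.6% in WT and 46.8% in KO, and *Saa2* 15.8% and 40.0%. *Saa1* and *Saa2* together therefore went from 44.3% of SAA reads in WT to 86.8% in KO. The share of *Saa3* was 3.09% in WT and 0.666% in KO, lower although its own value was not lower. Counted per kb, which removes the weight of the long *Saa4* transcript, *Saa1* held the largest share in both genotypes, 45.2% in WT and 51.4% in KO. Of the difference between the genotypes in summed reads, *Saa1* made up 51.0%, *Saa2* 45.5%, *Saa4* 3.38% and *Saa3* 0.108%. The sum of *Saa1* and *Saa2*, which does not depend on how reads were divided between them, was 841 in WT and 8804 in KO, 10.5-fold higher. Within the pair, the ratio of *Saa1* to *Saa2* reads was 1.81 in WT and 1.17 in KO.

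The deposited WT and KO values of a gene lie closer together than the reads they came from. This was measured on genes with reads in both genotypes whose log2 ratio, on reads recovered from the deposited values, lay beyond a fixed limit either way. The median of deposited over recovered log2 ratio was 0.764 for such genes with a sum of 200 to 400 normalized reads over the 6 libraries (358 genes). For sums of 60 to 200 it was 0.679. The shrinkage at the higher read numbers of *Saa1*, *Saa2* and *Saa4* was not measured. Deposited ratios and counts past 2-fold are therefore not fully comparable between genes with few reads and genes with many.

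*Saa3* was the SAA gene whose reads in each library could be recovered. The libraries carry a genotype but no pool number in this recovery and are named here by their size factor, the divisor that brings a library to the common scale. In WT, *Saa3* had 46 reads in the library with size factor 1.22, 43 in that with 0.879 and 70 in that with 0.818, or 37.6, 48.9 and 85.6 normalized reads. In KO it had 29 reads at size factor 1.31, 79 at 1.04 and 96 at 0.886, or 22.1, 76.3 and 108 normalized reads. The lowest and the highest of the 6 values were both KO libraries, and the genotypes overlapped. The means were 57.4 ± 25.1 in WT and 68.9 ± 43.6 in KO (SD, n = 3), so the difference between the genotypes was smaller than the spread within either of them. Without the KO library at size factor 0.886 the log2 ratio of *Saa3* was -0.22, and without the KO library at 1.31 it was 0.68.

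In each genotype, *Saa3* was lowest in the library with the largest size factor. The KO library with size factor 1.31 also stood apart in its adipocyte markers, whose summed value was 372 normalized reads there with all 5 markers in the table counted, while the other libraries ranged from 19.6 to 121. Their part in the *Saa3* values was not tested. Markers of Kupffer cells, the resident macrophages of liver, had a median log2 ratio of 0.14 over 12 genes. Of these 9 were above 0 and 3 below, beside 57.7% of all genes below 0. The 2 with reads by library, *Marco* and *Timd4*, summed to 101, 81.1 and 182 normalized reads in the KO libraries at 1.31, 1.04 and 0.886. In the WT libraries at 1.22, 0.879 and 0.818 they summed to 51.4, 118 and 96.6. The part of the Kupffer cell markers in the *Saa3* values was not tested. The 10 neutrophil markers were all below a mean of 10, and their summed values were 22.9 to 41.8 normalized reads in the KO libraries and 24.5 to 34.1 in the WT libraries. All 6 measured red cell markers had a log2 ratio above 0 (median 0.67), with *Slc4a1*, the anion exchanger of red cells, at 1.45. The KO library with size factor 0.886 stood apart in these markers: the summed value of the 5 weakly expressed ones with reads by library was 321 normalized reads there, 34.3 and 125 in the KO libraries at 1.31 and 1.04, and 26.1, 38.7 and 50.1 in the WT libraries at 1.22, 0.879 and 0.818. Most of that sum was *Slc4a1* (287 of 321). The 4 other genes summed to 6.10, 16.4 and 33.9 in KO and 4.90, 3.41 and 2.45 in WT, in the same order of libraries. Without the KO library at 0.886, in which *Saa3* was highest, the KO sum of all 5 was 2.07-fold the WT sum, against 4.17-fold with it. The part of the red cell markers in the *Saa3* values was not tested. The 3 lymphocyte markers with a mean of at least 10 all had a log2 ratio below 0 (median -0.39), and the 2 such adipocyte markers were above 0 (median 0.45). Both directions leaned on 1 library. The summed adipocyte markers were 2.74-fold the WT sum in KO with all libraries and 0.85-fold without the KO library at 1.31. Without the WT library at 0.879 they were 6.23-fold. The summed lymphocyte markers, 8 genes, were 0.713-fold with all libraries and 0.942-fold without the WT library at 0.818. Whether any of these moved with *Saa1* and *Saa2* from pool to pool was not tested, since those genes have no value by pool.

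**Figure D3:**
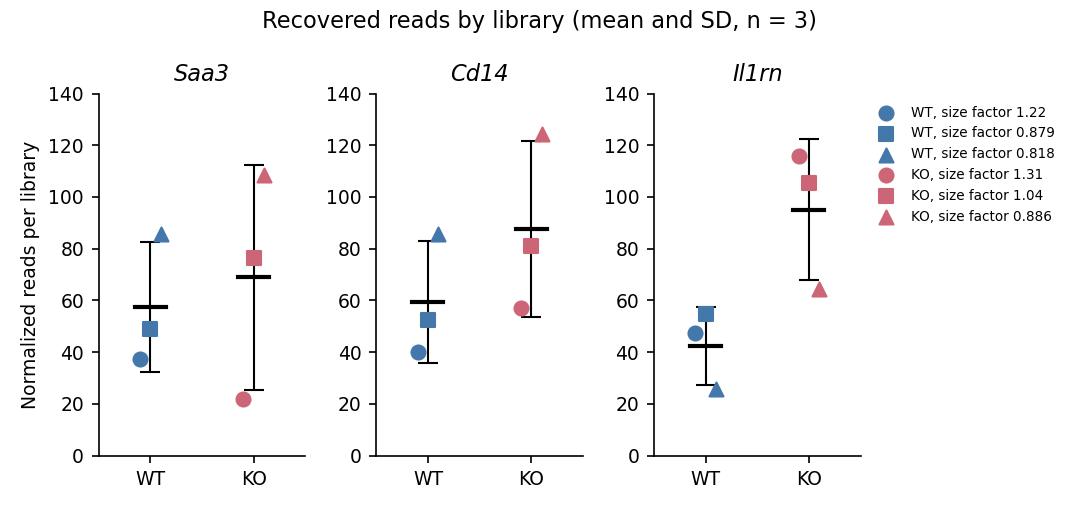
Normalized reads of *Saa3*, *Cd14* and *Il1rn* in each of the 3 WT and 3 KO libraries (symbols, with size factors in the key), with the mean as a thick line and the SD as a bar. The genotypes overlap for *Saa3* and *Cd14* and do not overlap for *Il1rn*, whose KO libraries lie between 64.4 and 116 and WT libraries between 25.7 and 54.6.

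The genes beside the cluster were described in the same way. *Saa1* and *Saa2* were chosen for their ratios, so nothing is read from smaller differences in their neighbours. No other measured gene lies inside the cluster. Of the 20 nearest genes with a mean of at least 10, 10 on each side, 0 differed 2-fold between the genotypes. The share over all genes was 0.818%, at which 20 genes hold few such genes or none. The log2 ratios of these 20 genes ran from -0.93 to 0.33 with a median of -0.13. *Saal1*, the nearest gene on the *Saa3* side at 1.308 kb, was 63.1 in WT and 69.9 in KO (log2 ratio 0.14). *Hps5*, a gene for the biogenesis of lysosome-related organelles, 6.153 kb from *Saa2* on the other side, was 68.6 and 79.2 (log2 ratio 0.20). The lowest ratio was that of *Mrgpra6*, 1298 in WT and 680 in KO.

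**Figure D4:**
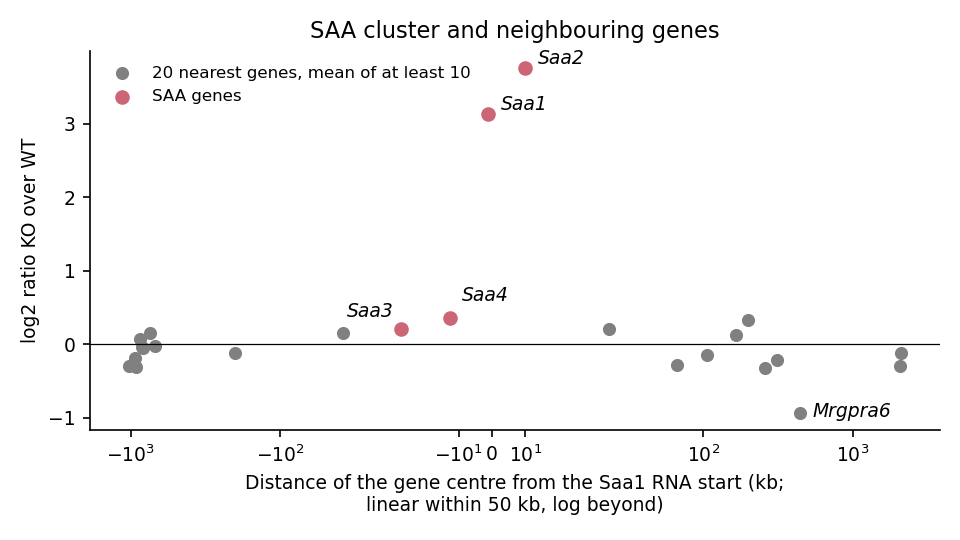
Log2 ratio of KO over WT of the SAA genes (red) and the 20 nearest genes with a mean of at least 10 (grey) against the distance of each gene's centre from the *Saa1* RNA start (kb, linear within 50 kb and log beyond). *Saa1* and *Saa2* stand at 3.13 and 3.76, and the neighbours on both sides lie between -0.93 and 0.33.

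Outside the family, the genes nearest to *Saa1* and *Saa2* in log2 ratio remained well below them. They were *Slc4a1* (46.6 in WT and 129 in KO, log2 ratio 1.45), *Lcn2* (147 and 396, 1.42), the squalene epoxidase gene *Sqle* (48.5 and 119, 1.28), *Orm2* (97.7 and 231, 1.23) and the cell cycle kinase gene *Wee1* (54.1 and 126, 1.21). *Lcn2* encodes lipocalin 2, which binds bacterial siderophores, and *Orm2* an orosomucoid carrier of plasma, and both are acute phase genes. This likeness rests on 1 value for each genotype. By library, *Slc4a1* was 28.2, 108 and 287 normalized reads in KO and 21.2, 35.3 and 47.7 in WT, with overlap. The KO library at size factor 0.886 carried much of its ratio: the recovered reads were 4.06-fold higher in KO with that library and 1.96-fold without it. *Wee1* was 156, 138 and 97.1 in KO and 40.8, 64.8 and 44.0 in WT, without overlap. Both genes were chosen for their ratio in the same libraries, so these values are a description without a test. *Lcn2*, *Sqle* and *Orm2* were not resolved by library here.

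The other acute phase genes of liver were compared with the SAA genes as a list. Of 29 positive acute phase genes 28 had a mean of at least 10, and their median log2 ratio was 0.07. Among these 28 genes, 18 were above 0 and 10 below, beside 57.7% of all genes below 0. *Lcn2* and *Orm2* were at least 2-fold higher in KO and 0 genes were 2-fold lower, beside 0.158% and 0.66% of all genes. *Il1rn* lay just under that limit on the deposited values, at 46.2 in WT and 91.4 in KO (1.98-fold), and above it on the recovered reads (2.24-fold). Members of the list named for their known roles differed less. *Hp*, which encodes haptoglobin, was 94652 in WT and 106189 in KO (log2 ratio 0.17), the serum amyloid P gene *Apcs* 488 and 451 (-0.11), and the C-reactive protein gene *Crp* 3110 and 3637 (0.23). The fibrinogen chain gene *Fga* had the lowest ratio of the list at -0.37, and the genes of the other chains, *Fgb* and *Fgg*, were at -0.29 and -0.30. *Saa1* and *Saa2* were chosen for their ratios, so nothing is read from their place above all 28 measured genes of this list. The 10 negative acute phase genes had a median of -0.08 with none past 2-fold (0 of 10, beside 0.818% of all genes). Among them, 8 were below 0 and 2 above, beside 57.7% of all genes below 0. *Serpina6*, which encodes the corticosteroid carrier of plasma, had the largest difference of these 10 at 0.52.

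*Il1rn* and *Cd14*, an antagonist of interleukin 1 and a co-receptor for bacterial lipopolysaccharide, had reads by library. *Il1rn* was 116, 105 and 64.4 normalized reads in the KO libraries with size factors 1.31, 1.04 and 0.886, and 47.4, 54.6 and 25.7 in the WT libraries with 1.22, 0.879 and 0.818. The genotypes did not overlap, with means of 95.1 ± 27.2 in KO and 42.5 ± 15.05 in WT (SD, n = 3). *Il1rn* is named for its ratio in the same libraries, so this too is a description. *Cd14* was 57.1, 81.1 and 124 in KO and 40.0, 52.3 and 85.6 in WT, with overlap (two-sided exact permutation p = 0.3, n = 3, where 3 libraries against 3 cannot go below 0.1). Nothing in the sources used here says how the mice were divided between pools beyond their number, and p-values here measure only the spread between pools.

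Over all genes with reads by library and a sum of 60 to 400, limma found 0 of 3298 at an adjusted p under 0.05 (0%). An unadjusted p under 0.05 was found for 54 (1.64%), beside 4.75% of the unchanged genes in a simulation. The cause of this lower share was not tested. The simulated spread between libraries was fixed and not estimated from these data, so 0 called genes is not read as an absence of differences. The genotypes did not overlap for 5.7% of the 3298 genes. *Il1rn* lies above this range of sums.

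The SAA-inducing cytokines were near the lower end of what the libraries could measure. *Il6* had 1 read in 1 KO library and 1 read in 1 WT library. *Il1b* had 26, 16 and 4 reads in the KO libraries and 24, 11 and 16 in the WT libraries, and the log2 ratio of its deposited values was -0.23. *Il1a* was at -0.36 and *Il18* at 0.08, and these 3 were the cytokines with a mean of at least 10. A difference in *Il6* was not detectable at this depth.

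In the list of cytokine receptors, which also holds the Toll-like receptor genes *Tlr2* and *Tlr4*, 11 genes had a mean of at least 10, and their median log2 ratio was 0.18. None differed 2-fold (0 of 11), beside 0.818% of all genes, a share at which a list of this length holds few such genes or none. The same holds for the lists that follow. The interleukin 6 receptor gene *Il6ra* had the largest ratio, from 349 in WT to 533 in KO (0.61), ahead of *Il22ra1* (0.58) and *Il1r1* (0.44), which encode receptor chains for interleukin 22 and interleukin 1. The 20 JAK-STAT and NF-kB transducers had a median of -0.02 and 0 past 2-fold (0.818% of all genes). Their largest differences were those of the NF-kB subunit gene *Nfkb2* (-0.38), the IKK kinase gene *Chuk* (-0.38) and the receptor kinase gene *Irak1* (0.38).

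The 12 measured genes of factors that bind SAA promoters had a median log2 ratio of -0.06, and 0 differed 2-fold (0.818% of all genes). The C/EBP gene *Cebpd* was 458 in WT and 548 in KO (0.26), *Cebpb* was 4451 and 4268 (-0.06), and *Stat3* was 1324 and 1504 (0.18). The glucocorticoid receptor gene *Nr3c1* had the largest difference, 257 in WT and 183 in KO (-0.48), and *Hnf4a*, a hepatocyte nuclear receptor gene, was at 0.23. These are transcript levels, and the activity of the factors was not measured.

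HDL, the carrier of SAA in plasma, is made of other liver products. Of 22 genes for HDL proteins and enzymes, 18 had a log2 ratio below 0, beside 57.7% of all genes, and 0 differed 2-fold, beside 0.818%. Their median was -0.18, beside -0.05 for all genes. *Apoa1*, which encodes the main HDL protein, was 667133 normalized reads in WT and 505509 in KO (-0.40). *Apoa4* was 136017 and 92211 (-0.56), and *Apoc1*, an inhibitor of lipoprotein uptake, was at -0.51. The cholesterol exporter gene *Abcg1* was higher in KO at 0.43, with overlapping libraries (109.7, 75.3 and 63.2 in KO, 73.5, 58.0 and 42.8 in WT).

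Receptors, proteases and amyloid partners act on the SAA protein after its secretion. The 5 SAA receptor genes with a mean of at least 10 had a median log2 ratio of -0.00 and 0 past 2-fold, beside 0.818% of all genes. The scavenger receptor gene *Cd36* was at 0.36, the formyl peptide receptor gene *Fpr1* at -0.36 and the Toll-like receptor gene *Tlr2* at -0.31. *Fpr1* was 12.2, 16.4 and 15.8 normalized reads in the KO libraries and 17.1, 27.3 and 18.3 in the WT libraries, which did not overlap, beside 5.7% of genes with a sum of 60 to 400 (limma adjusted p = 0.999). The 9 genes of proteases and amyloid partners had a median of -0.07 and 0 past 2-fold, with *Mmp9*, a matrix protease, at 0.51 and the cathepsin gene *Ctsl* at -0.21.

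**Figure D5:**
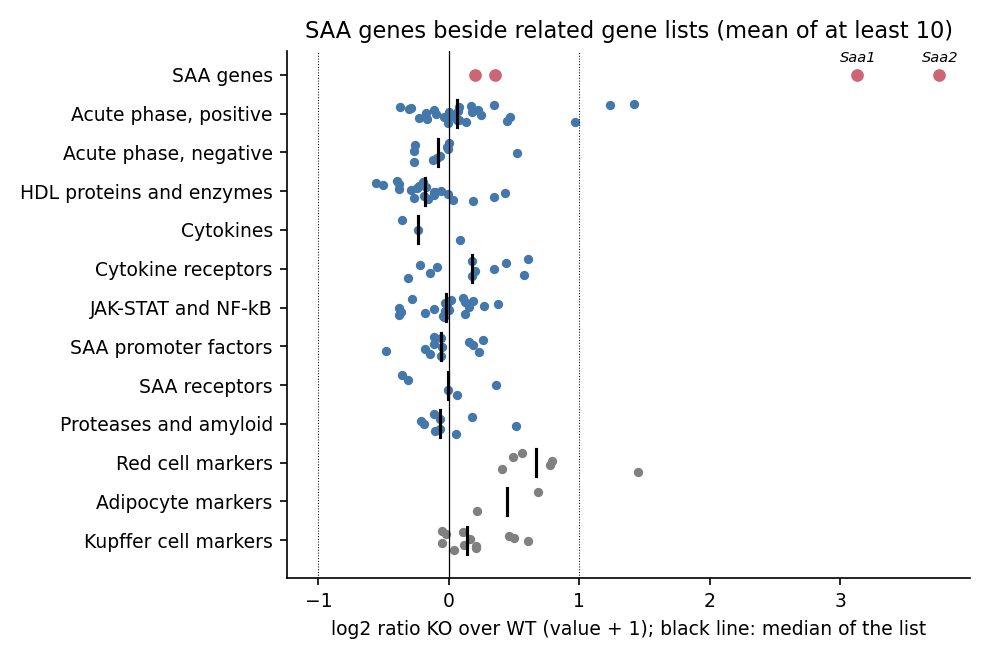
Log2 ratio of KO over WT of the 4 SAA genes (red), of 9 related gene lists (blue) and of 3 lists of cell markers (grey), with 1 point for each gene with a mean of at least 10, a black line at each list's median and dotted lines at a 2-fold difference. *Saa1* and *Saa2*, which were chosen for their ratios, lie at 3.13 and 3.76. The highest values of the lists are *Slc4a1* at 1.45 and *Lcn2* at 1.42.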

How the data were processed

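The authors deposited for each of 16123 genes a signal for WT and a signal for KO, on the scale of reads divided by size factors and combined over 3 pools. Their comparison columns (log2 ratio, p-value, adjusted p) were not used. The submitters' processing notes name the build mm10 (GRCm38) and the tools HISAT2, StringTie, Cufflinks, GATK, Bowtie2 and RSEM without their roles. Read counts and percent values of mapping were deposited by the authors for each library.

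Log2 ratios were taken on the value plus a pseudocount of 1 for genes with a mean of at least 10, and lists were described by counts past 2-fold and medians. The mean of both genotype values, deposited to 15 significant digits, equals the mean over 6 libraries of whole reads divided by size factor. Sets of 6 whole numbers were enumerated for sums up to 400, and 8049 of 8081 genes (99.6%) were resolved within 2.5 times the rounding. Tested on simulated data, 7553 of 7565 genes were resolved, all 7553 with the right reads. Between 84152 and 195987 reads per library were recovered, so genes with few reads have a large counting error. limma 3.58.1 (R 4.3.3) compared log2(normalized reads + 1) for sums of 60 to 400, with Benjamini-Hochberg adjustment. In a simulation, 166 of 170 genes changed 4-fold were called, with 10 unchanged genes. The simulated spread between libraries was fixed and not estimated from these data, so these counts do not give the power of the test here. Single genes had two-sided exact permutation tests. Sums up to 560 were also enumerated, and *Slc4a1* and the red cell, adipocyte and lymphocyte markers were recalculated without each library; both were decided after seeing the data. Promoters and gene positions came from RefSeq (GRCm38.p6; 16089 genes matched, 99.8%; all 4 SAA genes had a promoter) and coding sequences from GENCODE M21, aligned with Biopython 1.88.

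The SAA genes, the lists and the tests were chosen with earlier results of these data known. The named genes were the SAA genes, *Txndc5*, 10 neighbours on each side, the 5 genes nearest in ratio, and in each list the genes past 2-fold and those with the largest ratios. *Hp*, *Apcs*, *Crp*, *Fga*, *Fgb*, *Fgg*, *Apoa1*, *Cebpb*, *Stat3*, *Alb* and *Il6* were named in addition for their known roles or as a range limit. Alternatives were the pseudocount, the minimum mean, centring, the fold threshold, transcript length, the minimum sum and leaving out each recovered library.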

Additional observations from a re-analysis of the deposited data

How the results depend on the processing

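*Saa1* ranged from 3.13 to 3.18, *Saa2* from 3.76 to 3.80 and *Saa4* from 0.36 to 0.40 on the log2 scale over the pseudocounts and centring. *Saa3* ranged from -0.22 to 0.68 with recovered libraries left out in turn, and the value of -0.22, without the KO library at size factor 0.886, was reversed. At a fold threshold of 1.5, 163 genes were higher and 607 lower in KO. With a mean of at least 1, the medians were -0.075 for the cytokines, -0.12 for the SAA receptors, 0.56 for the red cell markers and 0.68 for the adipocyte markers. Centring on the median of all genes turned the medians of the transducers (-0.02 to 0.02), the SAA receptors (-0.00 to 0.04) and the cholangiocyte markers (-0.02 to 0.03), all near 0. Per kb of transcript, the shares in WT and KO were 45.2% and 51.4% for *Saa1*, 24.8% and 43.7% for *Saa2*, 5.59% and 0.837% for *Saa3*, and 24.4% and 4.06% for *Saa4*. limma gave 91 of 4675 genes with an unadjusted p under 0.05 for sums of at least 20, and between 21 (without the KO library at 1.04) and 168 (without the KO library at 1.31) with a library left out, against 54 of 3298. Without the WT libraries at 1.22 and 0.818 these were 137 and 140, and without the KO library at 0.886 it was 23. The adjusted count was 0 in each of these fits. The cause of these shifts was not tested. No paired analysis was possible because the pools of the genotypes share only the number 2 and the recovered libraries carry no pool number. The depth of the libraries limits *Il6* and the other cytokines with few reads, and the values of *Saa1*, *Saa2* and *Saa4* carry no spread between pools.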

Other observations

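The library profile of *Saa3* was set beside that of other genes with reads by library. Over the 6 libraries, the genes with the highest Pearson correlation with *Saa3* on the log2 scale among 3303 genes were *Aldh3b1* (r = 0.98), *Tonsl* (0.98), *Adat2* (0.97), *Pigb* (0.97) and *Atp2a3* (0.95). *Cd14* stood at rank 101 with r = 0.80, the Kupffer cell markers *Marco* and *Timd4* at 0.48 and 0.02, the adipocyte marker *Cfd* at -0.46, *Il1rn* at -0.39 and *Il1b* at -0.60. For the red cell marker *Slc4a1* no correlation is given here. Within each genotype it rose over the libraries in the same order as *Saa3* (28.2, 108 and 287 normalized reads in KO, 21.2, 35.3 and 47.7 in WT). That is the order of falling size factor, and *Cd14* followed it too (57.1, 81.1 and 124 in KO, 40.0, 52.3 and 85.6 in WT). The shared order thus does not set *Slc4a1* apart. These values were looked at after the data had been seen, the 6 libraries share their size factors across all genes, and with 6 points no test was made.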
